A study of Mus musculus with 10 samples.

Results

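The lysosomal hydrolases, their helper proteins, lysosomal membrane proteins and MiT/TFE transcription factors were followed as a named set of 36 genes in microglia, the macrophages of brain tissue, from 5 sources. The members were identified by gene symbol, and all 36 were found among the 18281 gene symbols of the count tables. Cells of C57BL/6 mice were sorted as live CD11b high, CD45 intermediate cells and sequenced as droplet-based single cell libraries that count unique molecular identifiers (UMIs), with 2 libraries in each group. Adult microglia were taken directly from the brains of adult mice. In vitro microglia were collected from the medium of mixed glial cultures that had been prepared from neonatal cortex and kept for 3 weeks. Slice microglia came from brain slices of neonatal pups kept in culture for 1 day, 1 week or 3 weeks, with slices pooled where more cells were needed and human PDGF added at each change of medium. The labels name no transgene and no other treatment in any group. The age of the animal of origin and the culture cannot be told apart in any comparison with adult.

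Lysosomes are acidic organelles in which hydrolases take apart the lipids, sugars and proteins that a cell engulfs or recycles. The hydrolases are active only at low pH, are joined by non-enzymatic activators that present lipid substrates to them, and are held inside a membrane rich in heavily glycosylated proteins such as LAMP1 and LAMP2. TFEB, TFE3 and MITF bind E-box sequences in the promoters of many lysosomal genes, and loss of individual hydrolases causes the lysosomal storage diseases, many of which affect the brain.

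For this reason the promoters of the set were read first. RefSeq promoter windows (GRCm38.p6, 250 bases before to 50 bases after each start) were found for 34 of the 36 genes, in 42 windows, and none was found for Npc1 or Asah1. The core E-box CACGTG, which reads the same on both strands, was present in 9 of the 42 windows (21.4%) and in 7.15% of all 32851 windows. The longer form TCACGTGA contains the core, so the counts are nested, and it was found in 3 member windows (7.14%, against 0.974% of all windows). Its extension by a G before and a C after it was found in 1 member window, that of Cln3 (2.38%, against 0.326%). The 60 bases around the longest match are shown for the 9 genes so that their E-boxes can be compared, with the core E-box or its longer form in capitals and each sequence on the strand of its gene. The whole windows of Lamp1, Cln3 and Gla held 4, 2 and 2 cores, and not all of these lie in the bases shown.
Cln3, chr7:126583325-126583384, minus strand: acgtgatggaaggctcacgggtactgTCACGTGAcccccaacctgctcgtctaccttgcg
Gla, chrX:134601196-134601255, minus strand: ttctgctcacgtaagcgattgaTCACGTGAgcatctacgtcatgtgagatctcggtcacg
Mcoln1, chr8:3500447-3500506, plus strand: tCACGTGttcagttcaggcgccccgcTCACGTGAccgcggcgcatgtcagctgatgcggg
Arsa, chr15:89477408-89477467, minus strand: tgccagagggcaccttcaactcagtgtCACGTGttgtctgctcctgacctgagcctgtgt
Gaa, chr11:119267796-119267855, plus strand: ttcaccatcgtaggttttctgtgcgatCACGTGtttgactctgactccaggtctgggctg
Glb1, chr9:114401003-114401062, plus strand: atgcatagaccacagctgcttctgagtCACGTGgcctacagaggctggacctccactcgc
Lamp1, chr8:13159073-13159132, plus strand: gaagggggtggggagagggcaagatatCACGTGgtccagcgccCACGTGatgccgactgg
Naglu, chr11:101069994-101070053, plus strand: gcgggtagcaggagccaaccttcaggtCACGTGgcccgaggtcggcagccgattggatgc
Sgsh, chr11:119355507-119355566, minus strand: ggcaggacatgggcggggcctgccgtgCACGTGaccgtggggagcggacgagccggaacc
These matches describe letters only, and binding at them was not measured here.

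All 12 microglia markers were detected in every library, with a summed level between 6833 counts-per-million (CPM) at 1 day in slices and 41375 CPM in adult. Kept cells ran from 61 to 3799 per library, total UMIs from 385373 to 39689540 and median UMIs per cell from 1858 to 13966. The 2 slice 1 week libraries had the fewest cells and total UMIs, and the 2 adult libraries the fewest UMIs per cell. Neutrophil markers summed to 7658 and 22419 CPM in the slice 1 day libraries and to 40236 and 955 in the slice 1 week libraries, against 1.18 to 8.31 elsewhere. Erythroid markers summed to 3463 CPM in slice 1 day replicate 1 and 1851.5 in adult replicate 1, and to at most 1.02 in the other libraries. Cells with at least 1% of their UMIs in the markers of any 1 of 7 other cell types (neutrophils, lymphocytes, neurons, astrocytes, oligodendrocytes, endothelial and erythroid cells) made up 13.5% and 11.2% of the slice 1 day libraries, 16.9% and 1.64% of the slice 1 week libraries and at most 0.347% of the others. Markers of monocytes and border macrophages were not used to mark such cells. Monocyte markers summed to 154 and 365 CPM at 1 day, to 855 and 0 at 1 week and to between 0.582 and 7.18 in the other libraries. Border macrophage markers summed to 13.4 and 8.24 CPM in adult and 4500.1 and 4314 in vitro. In slices they summed to 386 and 320.2 CPM (1 day), 485 and 314 (1 week) and 169 and 127 (3 weeks). The part of monocytes and border macrophages in the results was not tested. Libraries shared at most 2.94% of the barcodes of the smaller library.

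Together, the 36 genes held less of the transcriptome at 1 day in slices than in any other group. They took 1.68% and 1.68% of the UMIs of the adult libraries and 1.44% and 1.42% of the in vitro libraries. In slices they took 0.802% and 0.689% at 1 day, 1.25% and 1.40% after 1 week and 1.85% and 1.64% after 3 weeks. The means were 1.68% ± 0.0014 in adult, 1.43% ± 0.016 in vitro, 0.746% ± 0.080 at 1 day, 1.32% ± 0.11 at 1 week and 1.75% ± 0.15 at 3 weeks (SD, n = 2 libraries each). Both slice 1 day libraries were below the other 8, while the adult and slice 3 weeks libraries overlapped. These shares are of raw UMI totals, without the TMM factors that scale the gene levels given below. The factors were above 1 in both adult libraries and below 1 in the in vitro and slice 3 weeks libraries. Divided by them, the adult shares would lie below those of the in vitro and slice 3 weeks libraries. The place of adult among these groups thus depends on the scale, while the slice 1 day libraries stay lowest. Without the cells marked by those 7 types, but with monocytes and border macrophages left in, the slice 1 day libraries stood at 0.824% and 0.723%.

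**Figure D1:**
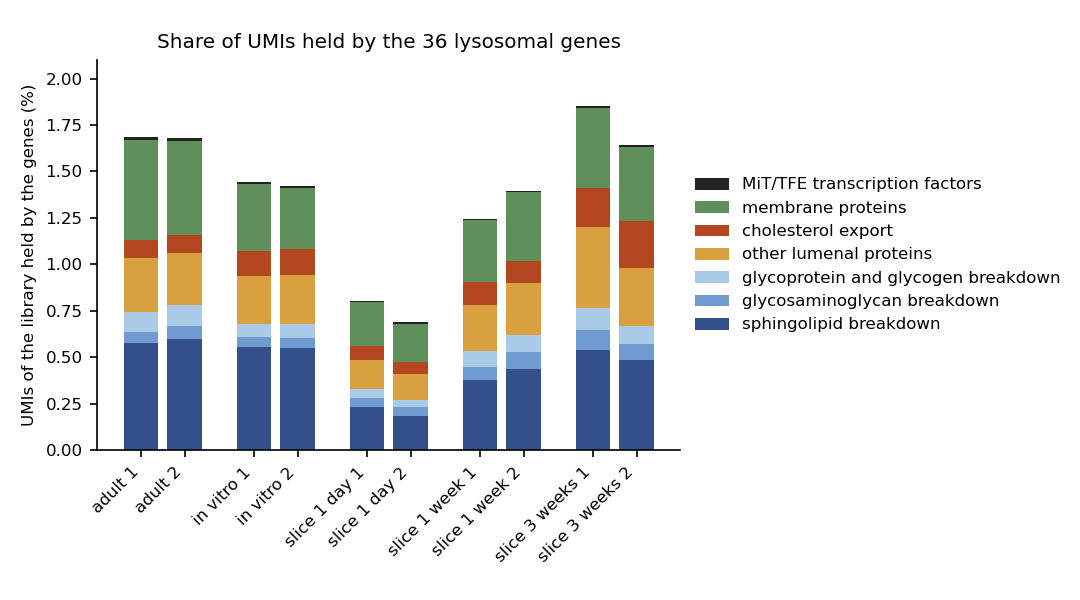
Percentage of each library's UMIs (y axis) held by the 36 genes, stacked by role, for the 2 libraries of each of the 5 groups (x axis). The slice 1 day bars reach 0.802% and 0.689%, and the lowest of the other 8 bars reaches 1.25%.

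By role, the parts of this share did not move alike. Genes of sphingolipid breakdown held 0.587% ± 0.017 of UMIs in adult, 0.205% ± 0.035 at 1 day and 0.509% ± 0.039 at 3 weeks. Membrane proteins held 0.522% ± 0.019, 0.221% ± 0.020 and 0.418% ± 0.022 in the same groups. The cholesterol export pair held 0.0993% ± 0.0028 in adult, 0.135% ± 0.0026 in vitro, 0.0690% ± 0.0070 at 1 day and 0.229% ± 0.031 at 3 weeks. Transcription factors held 0.0165% ± 0.00052 in adult and between 0.00864% and 0.00982% as group means in the cultures (all SD, n = 2). Such shares are also of raw UMI totals. They weigh the most abundant genes most, among them Psap, Laptm5, Npc2 and Tfe3, and need not hold for each gene of a role. In the fits described below, the median log2 fold change at 3 weeks against adult was 0.14 for sphingolipid breakdown and 0.07 for membrane proteins.

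Levels of single genes are given below as CPM in the first and second library of a group, after scaling of the libraries by TMM factors. Genes were called higher or lower at an adjusted p below 0.05 and a fold change above 1.5 in edgeR's quasi-likelihood test across 12155 genes, all 36 members among them, and adjusted p are Benjamini-Hochberg values from that test. CPM compares a gene with the rest of the transcriptome. On a scale of UMIs per cell the median log2 fold change of all genes against adult was higher than on the CPM scale. The shift between the scales was 2.15 (in vitro), 1.55 (1 day), 1.19 (1 week) and 1.08 (3 weeks). On the scale of UMIs per cell 42 of the 106 called differences turned in sign, but relative to the median of all genes all 106 kept their sign.

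The first question was how far each culture differed from adult microglia. In slices at 1 day, 22 members were lower and 1 was higher than in adult, against 25.4% of all tested genes lower and 24.9% higher. The median log2 fold change of the members was -0.90 and that of all tested genes -0.06. Leaving out the cells marked by the 7 other types, monocytes and border macrophages not among them, left the count at 22 lower and 1 higher. At 1 week 7 members were lower and 6 higher (13.6% and 15.0% of all genes), with a median of -0.24 against -0.08. At 3 weeks 4 were lower and 8 higher (17.5% and 18.0% of all genes), with a median of 0.24 against -0.03. In vitro 9 were lower and 8 higher (28.5% and 22.4% of all genes), with a median of -0.01 against -0.11. The member counts in vitro and at 1 week were thus close to the share of all genes, and so was the count of higher members at 3 weeks. Scaling by library size alone gave 14 lower and 3 higher in vitro, 11 and 5 at 1 week and 6 and 7 at 3 weeks. With 1 library left out, the lower count in vitro fell to 5 without in vitro replicate 2. At 1 week it fell to 4 without adult replicate 1 and to 3 without slice 1 week replicate 1, and the higher count there fell to 3 without slice 1 week replicate 2. Under library size alone the in vitro rises of Neu1 (0.40), Npc2 (0.49), Pld3 (0.29), Lamp1 (0.39) and Mitf (0.53) were not called, and without a filter on low counts the in vitro falls of Asah1 (-0.49), Ctns (-0.56), Naglu (-0.45) and Ppt1 (-0.53) were under the fold threshold. UMIs per cell gave no lower member and 34 (in vitro), 15 (1 day), 19 (1 week) and 28 (3 weeks) higher.

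Between slices at 3 weeks and at 1 day, 28 members were higher and 0 lower (13.9% and 12.8% of all genes), with a median of 1.08 against 0.05. DESeq2 gave 27 higher and 0 lower, and UMIs per cell 11 higher and 0 lower. Between in vitro and slice 3 weeks microglia, 11 members were lower in vitro and 2 higher (20.0% and 13.3% of all genes), with a median of -0.29 against -0.10. The lower count was 5 without in vitro replicate 2, 7 without in vitro replicate 1 and 6 without slice 3 weeks replicate 2, the higher count was 4 without slice 3 weeks replicate 2, and UMIs per cell gave 1 lower and 16 higher. Both slice 1 day libraries lay below the other 8 libraries for 19 members, against 7.46% of all tested genes. Both slice 3 weeks libraries lay above the other 8 for 10 members, against 3.50% of all genes: Gla, Glb1, Naglu, Neu1, Fuca1, Gaa, Ppt1, Pld3, Npc2 and Lamp2.

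**Figure D2:**
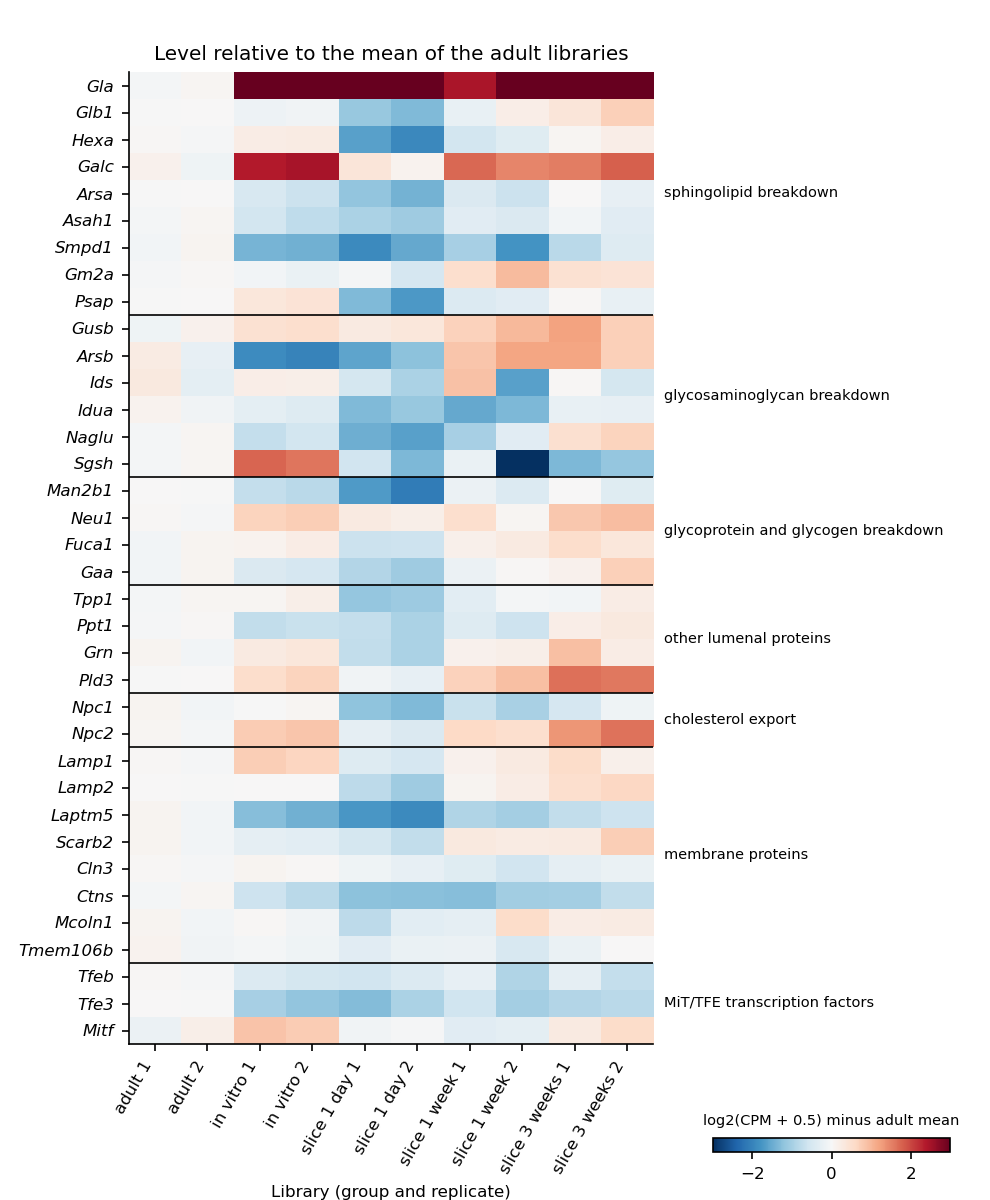
Level of each of the 36 genes (rows, grouped by role) in each of the 10 libraries (columns), as log2(CPM + 0.5) minus the mean of the 2 adult libraries, from blue (lower) to red (higher). Colours stop at 3 in either direction, which Gla passes upwards. The slice 1 day columns are blue in most rows, and the slice 3 weeks columns are red for Gla, Galc, Pld3 and Npc2.

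The enzymes of sphingolipid breakdown included the member furthest from adult. Gla encodes alpha-galactosidase A, which removes the terminal galactose of globotriaosylceramide and is deficient in Fabry disease. It stood at 3.59 and 3.86 CPM in adult (49 and 30 UMIs). The other libraries were at 46.2 and 55.3 CPM in vitro, 44.6 and 42.2 at 1 day, 22.7 and 43.5 after 1 week and 64.6 and 65.8 after 3 weeks. Both adult libraries were below all 8 others, and Gla was the 1 member called higher in all 4 cultures. Its fold change against adult was 13.7 in vitro (adjusted p = 3.3e-07), 11.7 at 1 day (adjusted p = 1.5e-06), 8.01 at 1 week (adjusted p = 7.8e-05) and 17.5 at 3 weeks (adjusted p = 9.9e-07). Gla lies at chrX:134588149-134601125 on the minus strand (GRCm38), and its exons overlap no other annotated gene. In cells thinned to 1500 UMIs, a Gla UMI was seen in 0.596% and 0.711% of adult cells and in 7.46% and 7.65% of slice 3 weeks cells, against 1.26%, 0.851%, 28.6% and 27.4% of all kept cells before thinning. Cells with fewer than 1500 UMIs were left out of all thinned shares. In adult these shares therefore cover 3521 and 2671 cells, and those before thinning 3799 and 3527. No sorted cell type lacking Gla was available to give a background for these shares.

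Galc, the galactosylceramidase that degrades myelin lipids and is lost in Krabbe disease, also rose in 3 cultures. It stood at 10.8 and 9.02 CPM in adult, 53.2 and 56.7 in vitro, 12.8 and 10.6 at 1 day, 33.6 and 28.1 after 1 week and 29.6 and 35.5 after 3 weeks. The in vitro libraries were the highest and the adult and 1 day libraries overlapped. Log2 fold changes against adult were 2.46 ± 0.17 in vitro (SE, adjusted p = 1.2e-06), 1.67 ± 0.23 at 1 week (adjusted p = 0.00051) and 1.71 ± 0.17 at 3 weeks (adjusted p = 4.8e-05), and the value at 1 day was 0.21 ± 0.19 (adjusted p = 0.40).

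Psap encodes prosaposin, the precursor of the saposins that assist sphingolipid hydrolases. Its level was 2936 and 2982 CPM in adult, 3765 and 3903 in vitro, 1184 and 898 at 1 day, 2232 and 2328 after 1 week and 3016 and 2519.9 after 3 weeks. It fell by 1.51 on the log2 scale at 1 day (adjusted p = 4.5e-05) and was called in no other culture against adult. Hexa, the alpha subunit of beta-hexosaminidase A, followed the same order at 1 day, with 1287 and 1208 CPM in adult, 403 and 325 at 1 day and 1298 and 1443 at 3 weeks. Its log2 fold change was -1.78 ± 0.16 at 1 day against adult (adjusted p = 1.1e-05) and 1.91 ± 0.16 at 3 weeks against 1 day (adjusted p = 7.9e-05). Neither Psap nor Hexa overlapped between the 1 day libraries and any other group.

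A further 4 enzymes of this route were lower at 1 day, by log2 fold changes of -1.24 (Glb1, beta-galactosidase), -1.38 (Arsa, arylsulfatase A), -1.01 (Asah1, acid ceramidase) and -1.71 (Smpd1, acid sphingomyelinase). Each rose again between 1 day and 3 weeks. Smpd1 stood at 59.8 and 66.6 CPM in adult, 23.6 and 23.1 in vitro, 16.5 and 21.3 at 1 day, 31.6 and 17.9 after 1 week and 35.8 and 47.8 after 3 weeks. Both adult libraries were the highest for Smpd1, and it was also lower in vitro (-1.44 ± 0.19, adjusted p = 0.00011) and at 1 week (-1.22 ± 0.26, adjusted p = 0.0061). Asah1 was lower in vitro (-0.66 ± 0.15, adjusted p = 0.0034), though not without in vitro replicate 2 (-0.43, adjusted p = 0.13) or with only the 2 groups fitted (-0.53, under the fold threshold). Glb1 shares exons with Tmppe on the same strand, so its count is uncertain. Gm2a, the activator that lifts GM2 ganglioside to hexosaminidase, was not called at 1 day (-0.27 ± 0.18, adjusted p = 0.23), with 152 and 159 CPM in adult, 149 and 109 at 1 day and 220.4 and 299 at 1 week. It was called higher at 1 week (0.72 ± 0.19, adjusted p = 0.017), a call lost without adult replicate 1 (adjusted p = 0.064), adult replicate 2 (adjusted p = 0.059) or slice 1 week replicate 2 (0.46, adjusted p = 0.14) and also with library size alone (0.52, adjusted p = 0.084) and among libraries of 1 study label, the study identifier among the sample labels (0.68, adjusted p = 0.068). All 9 members of this role were higher at 3 weeks than at 1 day (median log2 fold change 1.25). The call for Gla in that comparison (0.59) was lost without either slice 1 day library (adjusted p = 0.10 and 0.18) or slice 3 weeks replicate 2 (adjusted p = 0.061) and with library size alone (0.51, adjusted p = 0.066). It was under the fold threshold without the cells marked by the 7 other types (0.55), with DESeq2 (0.58) and with only the 2 groups fitted (0.58). The call for Gm2a in that comparison (0.71) was lost without slice 1 day replicate 2 (0.51, adjusted p = 0.15).

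**Figure D3:**
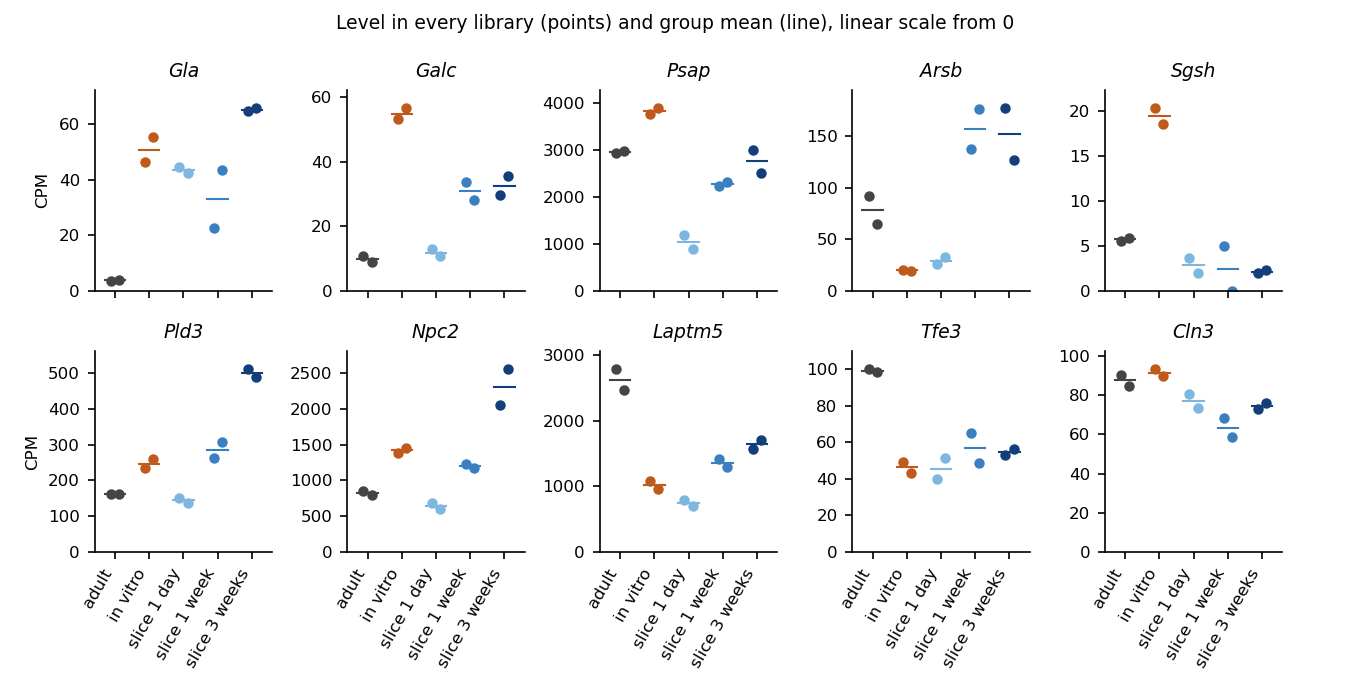
CPM of 10 members in every library (points, linear y axis from 0 in each panel) and the mean of the 2 libraries (line), by group (x axis). Gla is at 3.59 and 3.86 CPM in adult and at 22.7 or more in the other 8 libraries, and Laptm5 and Tfe3 are highest in adult.

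Among the 6 enzymes of glycosaminoglycan breakdown, Arsb and Sgsh moved in opposite directions between the cultures. Arsb, arylsulfatase B, acts on dermatan and chondroitin sulfate. Its level was 92.2 and 64.9 CPM in adult, 20.5 and 18.9 in vitro, 25.7 and 32.6 at 1 day, 137 and 177 after 1 week and 178 and 127 after 3 weeks. The in vitro libraries were the lowest, and the 1 week and 3 weeks libraries were the 4 highest. Against adult, its log2 fold change was -2.00 ± 0.23 in vitro (adjusted p = 3.5e-05), -1.42 ± 0.23 at 1 day (adjusted p = 0.00047), 0.97 ± 0.24 at 1 week (adjusted p = 0.012) and 0.95 ± 0.22 at 3 weeks (adjusted p = 0.0062). The rises were lost without adult replicate 2 (0.73 at 1 week, adjusted p = 0.074, and 0.72 at 3 weeks, adjusted p = 0.057), and that at 1 week also without slice 1 week replicate 2 (adjusted p = 0.085). In vitro against slice 3 weeks the fold change was -2.95 ± 0.23 (adjusted p = 9.7e-06).

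Sgsh encodes sulfamidase, an enzyme of heparan sulfate breakdown. It stood at 5.49 and 5.92 CPM in adult (75 and 46 UMIs), 20.4 and 18.5 in vitro, 3.67 and 1.96 at 1 day, and 1.94 and 2.28 at 3 weeks (15 and 49 UMIs). At 1 week it had 5 UMIs in replicate 1 (4.94 CPM) and 0 in replicate 2, where a count of 0 allows up to 7.68 CPM (3 counts, counting error only). It was highest in vitro (1.77 ± 0.30 against adult, adjusted p = 0.00052, and 3.17 ± 0.32 against slice 3 weeks, adjusted p = 5.2e-05) and lower than adult at 3 weeks (-1.40 ± 0.34, adjusted p = 0.0086). It was also called lower at 1 day (-1.15 ± 0.38, adjusted p = 0.025), but not without either adult library (adjusted p = 0.074 and 0.075) or slice 1 day replicate 2 (-0.57, adjusted p = 0.37). Exons of Sgsh overlap those of Card14 on the opposite strand.

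Naglu, which removes N-acetylglucosamine from heparan sulfate, was at 158 and 173 CPM in adult, 101 and 113 in vitro, 59.8 and 53.0 at 1 day, 83.0 and 130.5 after 1 week and 229.6 and 263 after 3 weeks. Both 1 day libraries were the lowest and both 3 weeks libraries the highest. It was 4.39-fold higher at 3 weeks than at 1 day (adjusted p = 9.7e-05) and lower in vitro than at 3 weeks (-1.20 ± 0.18, adjusted p = 0.00069). Its value at 3 weeks against adult was 0.58 ± 0.18, under the fold threshold. Naglu was called lower than adult in vitro (-0.62, adjusted p = 0.014) and at 1 week (-0.68, adjusted p = 0.029). The in vitro call was lost on leaving out any 1 of the 4 libraries (adjusted p = 0.062 to 0.22) and the 1 week call without adult replicate 1 (adjusted p = 0.069), adult replicate 2 (adjusted p = 0.10) or slice 1 week replicate 1 (-0.31, adjusted p = 0.39), and with all barcodes (-0.57, adjusted p = 0.072). In vitro Naglu was also under the fold threshold with DESeq2 (-0.56), with all barcodes (-0.54) and with only the 2 groups fitted (-0.50).

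Gusb, beta-glucuronidase, was lowest in adult (272 and 326 CPM), with 408 and 419 in vitro, 361 and 376 at 1 day, 484 and 583 after 1 week and 692 and 491 after 3 weeks. It was higher than adult at 3 weeks (0.98 ± 0.19, adjusted p = 0.0021) and at 1 week (0.83 ± 0.19, adjusted p = 0.0083), the latter not without adult replicate 1 (adjusted p = 0.0502) or slice 1 week replicate 2 (adjusted p = 0.067). Gusb was also called higher at 3 weeks than at 1 day (0.68, adjusted p = 0.020), but not without slice 1 day replicate 1 (adjusted p = 0.097), slice 1 day replicate 2 (adjusted p = 0.097) or slice 3 weeks replicate 1 (0.41, adjusted p = 0.089). That call was also lost with the study label as a covariate (0.62, adjusted p = 0.0504) and within 1 study label (0.41, adjusted p = 0.057), and with only the 2 groups fitted (0.68, adjusted p = 0.071). Idua, alpha-L-iduronidase, was lower at 1 day (-1.26 ± 0.17, adjusted p = 0.00014) and at 1 week (-1.53 ± 0.27, adjusted p = 0.0019, but 0.12 without slice 1 week replicate 1), and its exons overlap Dgkq and Slc26a1 on the opposite strand. Ids, iduronate-2-sulfatase, was called in none of the 6 comparisons and ranged from 2.56 CPM (1 UMI) to 16.8 CPM (17 UMIs) between the 2 slice 1 week libraries, with a log2 fold change of 0.39 ± 0.52 against adult at that time (adjusted p = 0.62).

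Of the 4 members that trim glycoproteins and glycogen, 3 were lower at 1 day. Man2b1, lysosomal alpha-mannosidase, was at 592 and 579 CPM in adult, 356 and 334 in vitro, 181 and 136 at 1 day, 517 and 440.1 after 1 week and 595 and 453 after 3 weeks. Its log2 fold change at 1 day was -1.89 ± 0.19 (adjusted p = 2.5e-05). It was lower in vitro than in adult (-0.76 ± 0.19, adjusted p = 0.0051), but not without in vitro replicate 1 (adjusted p = 0.054) or 2 (adjusted p = 0.093). Gaa, the acid glucosidase that degrades glycogen, fell by 0.99 at 1 day (adjusted p = 0.0015) and Fuca1, alpha-L-fucosidase, by 0.63 (adjusted p = 0.0033). The Fuca1 call was just past the fold threshold and was lost without adult replicate 2 (-0.55) or slice 1 day replicate 2 (-0.58), with DESeq2 (-0.58), with all barcodes (-0.58) and with only the 2 groups fitted (-0.58).

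Neu1, the sialidase, did not share the low level at 1 day. It stood at 60.1 and 57.8 CPM in adult, 94.1 and 98.0 in vitro, 70.8 and 67.0 at 1 day, 84.0 and 61.4 after 1 week and 103 and 112 after 3 weeks. Both adult libraries were below the other 8, and Neu1 was called higher in vitro (0.70 ± 0.14, adjusted p = 0.0017) and at 3 weeks (0.86 ± 0.14, adjusted p = 0.00094). All 4 genes were higher at 3 weeks than at 1 day, by 0.64 (Neu1) to 1.73 (Man2b1) on the log2 scale, with the Neu1 call lost without slice 1 day replicate 2 (adjusted p = 0.076) and under the fold threshold with library size alone (0.56).

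Pld3 and Grn, 2 of the other lumenal proteins, were higher at 3 weeks than in adult. Pld3, a lysosomal nuclease, was at 163 and 163 CPM in adult, 234 and 259 in vitro, 151 and 137 at 1 day, 262 and 307 after 1 week and 511 and 489 after 3 weeks. The 3 weeks libraries were the highest and did not overlap any other group. Its fold change at 3 weeks was 3.07 (log2 1.62 ± 0.14, adjusted p = 2.3e-05), and it was also higher in vitro (0.60, adjusted p = 0.0042) and at 1 week (0.80, adjusted p = 0.0025). Grn encodes progranulin, which is cleaved to granulins in lysosomes and whose loss causes frontotemporal dementia and a neuronal ceroid lipofuscinosis. Its level was 1869.9 and 1656 CPM in adult, 2129 and 2222 in vitro, 1049 and 916 at 1 day, 1928 and 1983 after 1 week and 3284 and 2038 after 3 weeks. The spread between the 3 weeks libraries was wide, and the rise at 3 weeks (0.59 ± 0.21, adjusted p = 0.041) was lost without slice 3 weeks replicate 1 (0.21, adjusted p = 0.28), adult replicate 1 (adjusted p = 0.071) or adult replicate 2 (adjusted p = 0.18), and also with library size alone (0.40, adjusted p = 0.16) or within 1 study label (0.30, adjusted p = 0.12). It was also lost with only the 2 groups fitted (0.66, adjusted p = 0.12) and under the fold threshold with a replicate block (0.58) and with the study label as a covariate (0.56). At 1 day Grn was lower than adult (-0.84 ± 0.21, adjusted p = 0.0057), but not without slice 1 day replicate 2 (adjusted p = 0.076).

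Tpp1, a peptidase, and Ppt1, which removes fatty acids from proteins, were both lower at 1 day (-1.13, adjusted p = 0.00018, and -0.84, adjusted p = 0.00075). Tpp1 was called in no other culture against adult, with 241 and 258 CPM in adult, 112 and 116 at 1 day and 234 and 291 at 3 weeks. Ppt1 was also lower in vitro, at 211 and 219.9 CPM against 341 and 361 in adult (-0.70 ± 0.15, adjusted p = 0.0020), a call lost without in vitro replicate 1 (adjusted p = 0.057) and under the fold threshold with only the 2 groups fitted (-0.57). All 4 lumenal proteins were higher at 3 weeks than at 1 day, by 1.09 (Ppt1) to 1.80 (Pld3).

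The pair that exports cholesterol from lysosomes diverged. Npc2, the soluble protein that binds cholesterol in the lumen, was at 849 and 789.6 CPM in adult, 1383 and 1453 in vitro, 681 and 603 at 1 day, 1234 and 1167 after 1 week and 2055 and 2551 after 3 weeks. It was 2.81-fold higher at 3 weeks than in adult (log2 1.49 ± 0.15, adjusted p = 6.1e-05) and 1.73-fold higher in vitro (0.79 ± 0.15, adjusted p = 0.0013). Npc1, the membrane transporter that receives cholesterol from Npc2, was at 69.3 and 62.3 CPM in adult, 65.6 and 68.6 in vitro, 28.0 and 26.0 at 1 day, 41.5 and 33.3 after 1 week and 46.6 and 60.2 after 3 weeks. No Npc1 value in a culture passed the test upwards, and its log2 fold change was -1.29 ± 0.16 at 1 day (adjusted p = 8.7e-05) and -0.77 ± 0.20 at 1 week (adjusted p = 0.015). The 1 week call was lost without adult replicate 1 (adjusted p = 0.077) or slice 1 week replicate 1 (adjusted p = 0.078) or 2 (adjusted p = 0.053). Both genes rose between 1 day and 3 weeks, by 1.84 ± 0.16 (Npc2, adjusted p = 7.9e-05) and 0.99 ± 0.16 (Npc1, adjusted p = 0.0016). In thinned cells an Npc2 UMI was seen in 73.9% and 72.7% of adult cells and 91.5% and 94.6% of slice 3 weeks cells, and in 91.4%, 77.5%, 99.1% and 99.3% of all kept cells before thinning.

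Of the 8 membrane proteins, Laptm5, Ctns, Lamp2 and Scarb2 were lower than adult at 1 day, and Laptm5 and Ctns were lower at 3 weeks as well. Laptm5, a lysosomal transmembrane protein of haematopoietic cells, was at 2781 and 2468 CPM in adult, 1074 and 959.7 in vitro, 785 and 701 at 1 day, 1408 and 1292 after 1 week and 1575 and 1701 after 3 weeks. Both adult libraries were above the other 8. Its log2 fold changes against adult were -1.37 in vitro (adjusted p = 2.6e-05), -1.82 at 1 day (adjusted p = 6.8e-06), -0.96 at 1 week (adjusted p = 0.00090) and -0.68 at 3 weeks (adjusted p = 0.0042), all with an SE of 0.15. The call at 3 weeks was lost without adult replicate 1 (-0.54, adjusted p = 0.051), within 1 study label (-0.54) and with only the 2 groups fitted (-0.62, adjusted p = 0.067). In thinned cells a Laptm5 UMI was seen in 98.9% and 98.4% of adult cells, 66.9% and 62.4% of slice 1 day cells and 87.3% and 89.4% of slice 3 weeks cells, and in 99.7%, 97.9%, 93.2%, 94.8%, 98.3% and 98.3% of all kept cells before thinning. Ctns, the cystine exporter cystinosin, was at 30.8 and 33.1 CPM in adult and between 12.8 and 20.6 in the other 8 libraries. It was lower in all 4 cultures, by log2 fold changes of -0.73 in vitro (adjusted p = 0.0027), -1.27 at 1 day (adjusted p = 0.00017), -1.23 at 1 week (adjusted p = 0.0054) and -0.89 at 3 weeks (adjusted p = 0.0018). The in vitro call of Ctns was lost without in vitro replicate 2 (-0.51, adjusted p = 0.10) and that at 1 week without slice 1 week replicate 1 (-1.03, adjusted p = 0.21).

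Lamp1 was the 1 membrane protein called higher than adult in any culture. Its level was 1324 and 1267 CPM in adult, 2159.8 and 2039 in vitro, 998 and 915 at 1 day, 1414 and 1561 after 1 week and 1908 and 1450.2 after 3 weeks. It was higher in vitro (0.70 ± 0.16, adjusted p = 0.0038), a call not made when libraries were scaled by size alone (0.39, adjusted p = 0.075). Lamp2 was at 420.1 and 414 CPM in adult, 418 and 423 in vitro, 241 and 200.3 at 1 day, 441 and 486 after 1 week and 589.6 and 642 after 3 weeks. It was lower than adult at 1 day (-0.92 ± 0.15, adjusted p = 0.00042), and its value at 3 weeks was 0.56 ± 0.14, under the fold threshold. Scarb2, the receptor that carries glucocerebrosidase to lysosomes, was lower at 1 day (-0.63 ± 0.17, adjusted p = 0.0099), but not without adult replicate 1 (-0.50, adjusted p = 0.083) or slice 1 day replicate 2 (-0.47, adjusted p = 0.13), and it was under the fold threshold within 1 study label (-0.54), with DESeq2 (-0.58) and with only the 2 groups fitted (-0.58).

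Cln3, a membrane protein lost in juvenile Batten disease, and Tmem106b, a membrane protein linked to frontotemporal dementia, were called in none of the 6 comparisons. Cln3 lay between 58.8 and 93.2 CPM and Tmem106b between 23.0 and 35.1 CPM over the 10 libraries. Mcoln1, the lysosomal calcium channel TRPML1, was called in no culture against adult, with 20.1 and 18.0 CPM in adult, 10.7 and 15.1 at 1 day and 22.4 and 22.5 at 3 weeks. It was higher at 3 weeks than at 1 day (0.76, adjusted p = 0.023), but not without slice 1 day replicate 1 (0.56, adjusted p = 0.15) or slice 3 weeks replicate 2 (adjusted p = 0.054), nor with only the 2 groups fitted (adjusted p = 0.064). Lamp1, Lamp2, Laptm5 and Scarb2 also rose between 1 day and 3 weeks, by 0.81 to 1.48 on the log2 scale, and the Lamp1 call was lost without slice 1 day replicate 2 (adjusted p = 0.055).

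**Figure D4:**
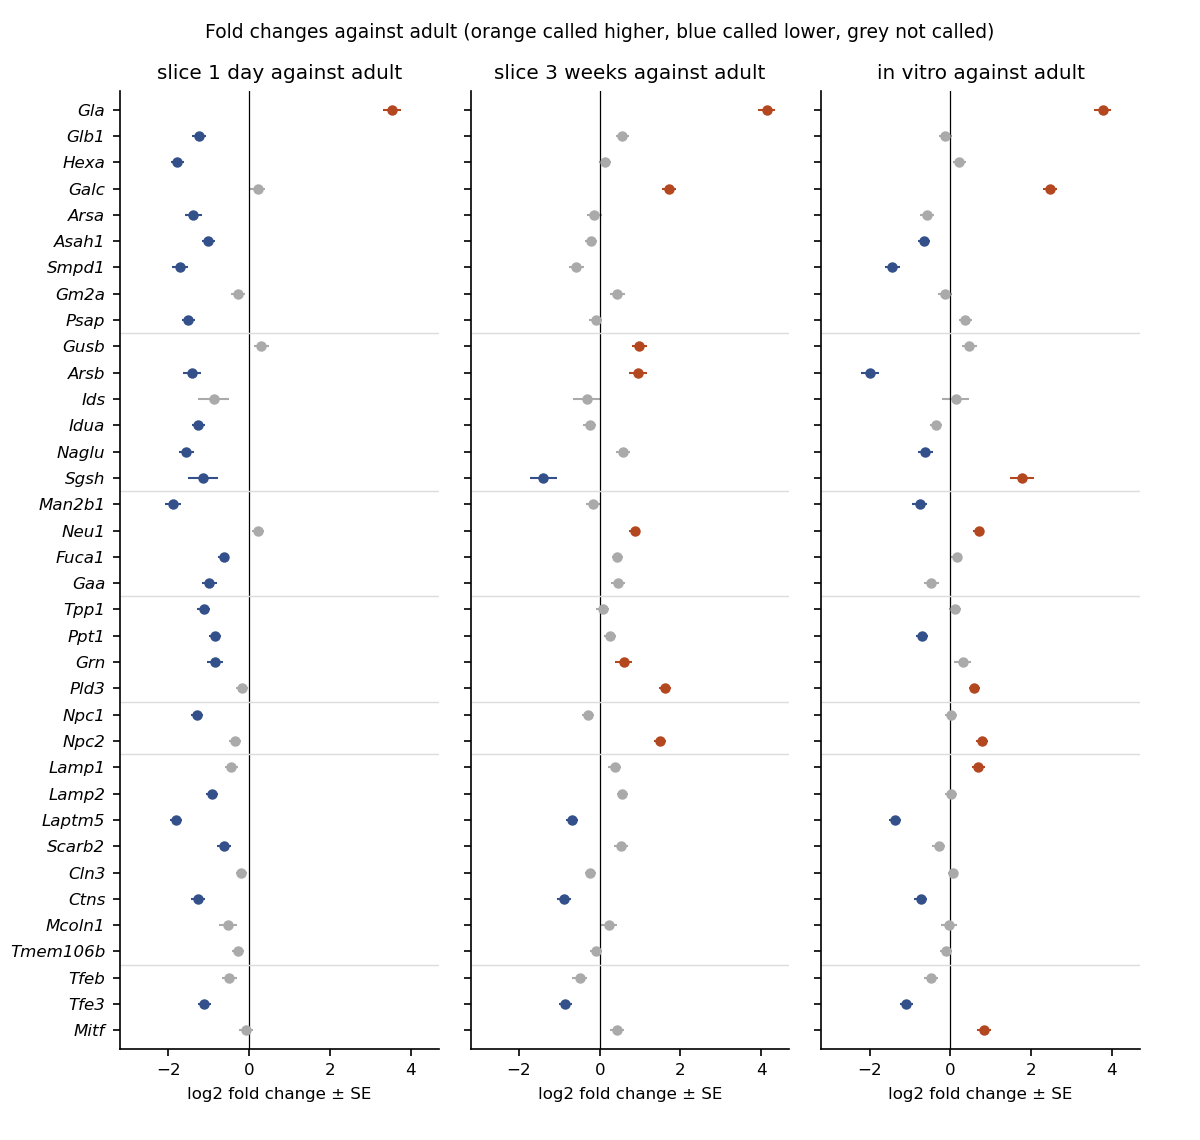
Log2 fold change against adult with its SE (x axis) for each of the 36 genes (y axis, in the order of roles) at 1 day and 3 weeks in slices and in vitro, from edgeR on 2 libraries per group. Blue points (lower) number 22 at 1 day, 4 at 3 weeks and 9 in vitro, and orange points (higher) number 1, 8 and 8.

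None of the 3 MiT/TFE transcription factors was called between 1 day and 3 weeks, with log2 fold changes of 0.26 (Tfe3, adjusted p = 0.25), -0.01 (Tfeb, adjusted p = 0.98) and 0.50 ± 0.17 (Mitf, adjusted p = 0.052). Tfe3 was at 99.97 and 98.3 CPM in adult, 49.5 and 43.4 in vitro, 39.8 and 51.2 at 1 day, 65.2 and 48.6 after 1 week and 53.3 and 56.1 after 3 weeks. Both adult libraries were above the other 8, and Tfe3 was called lower in all 4 cultures: in vitro (-1.09, adjusted p = 0.00018), at 1 day (-1.11, adjusted p = 0.00024), at 1 week (-0.75, adjusted p = 0.013) and at 3 weeks (-0.86, adjusted p = 0.0018). The call at 1 week was lost without adult replicate 1 (adjusted p = 0.057) or slice 1 week replicate 2 (adjusted p = 0.053). Tfeb stood at 29.9 and 28.5 CPM in adult and between 15.4 and 24.7 in the cultures, and although the adult libraries were the highest, it was called in none of the 6 comparisons (log2 fold changes against adult of -0.43 to -0.50). Mitf was at 16.7 and 21.1 CPM in adult, 34.6 and 32.4 in vitro, 17.3 and 18.3 at 1 day, 14.8 and 15.4 after 1 week and 22.6 and 27.7 after 3 weeks. It was called higher in vitro (0.83 ± 0.17, adjusted p = 0.0016), though under the fold threshold when libraries were scaled by size alone (0.53).

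Of the 9 genes with an E-box, Gla was called higher in all 4 cultures, Lamp1 and Sgsh in vitro, while Cln3 and Mcoln1 were called in none of the 4. Glb1, Arsa, Gaa, Naglu and Sgsh were called lower at 1 day. Naglu was also called lower in vitro and at 1 week, and Sgsh at 3 weeks. Between 1 day and 3 weeks 7 of the 9 were called higher and 0 lower, all but Cln3 and Sgsh, beside 28 of all 36 members and 13.9% of all tested genes higher and 12.8% lower. The calls of Gla, Lamp1 and Mcoln1 among these 7 were each lost on leaving out 1 library, as given above.

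Compared directly, in vitro and slice 3 weeks microglia differed most in Sgsh and Arsb, described above. Galc was the other gene higher in vitro (0.75 ± 0.16, adjusted p = 0.0039). The genes lower in vitro were, after Arsb and Naglu, Pld3 (-1.02, adjusted p = 0.00036), Ppt1 (-0.95, adjusted p = 0.00067), Gaa (-0.92, adjusted p = 0.0032), Smpd1 (-0.85, adjusted p = 0.0055), Scarb2 (-0.81, adjusted p = 0.0039), Npc2 (-0.70, adjusted p = 0.0049), Laptm5 (-0.69, adjusted p = 0.0043), Glb1 (-0.68, adjusted p = 0.0079) and Man2b1 (-0.60, adjusted p = 0.026). Arsb, Naglu, Pld3 and Ppt1 stayed called whichever library was left out. Gaa was under the fold threshold without slice 3 weeks replicate 2 (-0.53), as were Scarb2 (-0.49), Npc2 (-0.47), Smpd1 (-0.56) and Laptm5 (-0.57). Without in vitro replicate 2 the adjusted p was 0.060 for Scarb2, 0.057 for Npc2, 0.064 for Smpd1, 0.096 for Laptm5, 0.083 for Glb1 and 0.22 for Man2b1. Without in vitro replicate 1 it was 0.079 for Npc2, 0.052 for Smpd1, 0.11 for Glb1 and 0.14 for Man2b1. Glb1 was also lost without slice 3 weeks replicate 2 (adjusted p = 0.087) and Man2b1 without slice 3 weeks replicate 1 (adjusted p = 0.12), with the study label as a covariate (-0.49, adjusted p = 0.079) or within 1 study label (-0.39, adjusted p = 0.12). Man2b1 was also lost with only the 2 groups fitted (-0.56, adjusted p = 0.068), and under the fold threshold with DESeq2 (-0.57) and with no filter on low counts (-0.50).

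Other genes of the pathway, listed apart from the 36, were counted in the same fits. Of 28 other lysosomal enzymes, 14 were lower and 7 higher at 1 day than in adult (25.4% and 24.9% of all tested genes), 6 lower and 12 higher at 3 weeks (17.5% and 18.0%), and 9 lower and 9 higher in vitro (28.5% and 22.4%). At 3 weeks against 1 day 19 were higher and 3 lower, where 13.9% of all tested genes were higher and 12.8% lower. The other lysosomal membrane proteins (25 of 26 tested) gave 11 lower and 4 higher at 1 day, 5 and 5 at 3 weeks and 9 and 5 in vitro against adult, and 13 higher and 0 lower at 3 weeks against 1 day. Genes of mannose 6-phosphate tagging and sorting, which deliver hydrolases to lysosomes, gave 3 higher and 1 lower of 14 at 3 weeks against 1 day, and the regulators of mTORC1 and MiT/TFE factors 2 higher and 3 lower of 22, against the same 13.9% and 12.8% of all genes. In vitro against adult, 10 of those 22 regulators were higher and 2 lower, where 22.4% of all genes were higher and 28.5% lower.

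Among called genes of these lists whose mean log2 CPM was 5 or more, the enzymes furthest from adult at 3 weeks were 2 of glycosaminoglycan breakdown. Hgsnat, which acetylates heparan sulfate, was at 46.1 and 55.4 CPM in adult, 269 and 210.0 in vitro, 75.0 and 96.2 at 1 day, 235 and 284 after 1 week and 498 and 802 after 3 weeks (3.68 ± 0.26 at 3 weeks against adult, adjusted p = 6.7e-06). Galns, which desulfates keratan sulfate, was at 10.3 and 9.66 CPM in adult and 91.5 and 98.7 at 3 weeks (3.25 ± 0.15, adjusted p = 5.1e-07). Both adult libraries were below every other library for Hgsnat and Galns. The phospholipase Pla2g15 was lower at 3 weeks, at 109 and 75.6 CPM against 376 and 324 in adult (-1.92 ± 0.21, adjusted p = 7.9e-05). In vitro, Lipa, the acid lipase that frees cholesterol from its esters, was at 575 and 495 CPM against 106 and 105 in adult (2.34 ± 0.20, adjusted p = 5.2e-06), and Smpdl3a was higher by 2.41 ± 0.21 (adjusted p = 6.7e-06). Rnaset2b was lower in vitro (-2.63 ± 0.32, adjusted p = 5.5e-05) but has a near-identical copy, Rnaset2a, so its counts are uncertain.

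Of the other membrane proteins, Slc29a3, a lysosomal nucleoside transporter, Cd164, a sialomucin, and Tpcn1, an ion channel, were lower in vitro (-2.26, -2.03 and -1.57, adjusted p = 1.3e-05, 9.4e-06 and 7.7e-06). They were also lower at 3 weeks (-1.30, -1.81 and -1.27, adjusted p = 0.00099, 6.2e-05 and 9.8e-05). For Slc29a3 the adult libraries stood at 155 and 172 CPM and the other 8 at 20.2 to 83.3. Among the regulators, Lamtor2, Rragc and Lamtor5, which anchor mTORC1 at the lysosome, were higher in vitro (1.49, 1.09 and 1.02, adjusted p = 6.0e-05, 0.0014 and 6.4e-05), and Flcn and Ppp3ca were lower at 3 weeks (-0.86 and -0.64, adjusted p = 0.0010 and 0.011). Of the sorting genes, Vps29 was higher (1.23, adjusted p = 0.00018) and Nagpa and Gnptg were lower in vitro (-0.77 and -0.70, adjusted p = 0.00090 and 0.0057).

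Libraries of the adult and slice 3 weeks groups came under 2 study labels, 1 library of each group under each, which allowed the difference to be read within a label. Within the 2 labels the log2 ratio of slice 3 weeks to adult was 4.17 and 4.09 for Gla, 1.46 and 1.98 for Galc, 1.65 and 1.59 for Pld3, 1.28 and 1.69 for Npc2, 0.95 and 0.96 for Arsb, 1.35 and 0.59 for Gusb and 0.78 and 0.95 for Neu1. It was -1.50 and -1.38 for Sgsh, -1.002 and -0.81 for Ctns, -0.82 and -0.54 for Laptm5, -0.91 and -0.81 for Tfe3 and 0.81 and 0.30 for Grn. These 12 genes were called on the same 4 libraries, so their shared direction within the labels is no separate evidence. Of the members not called, Arsa (0.018 and -0.28), Psap (0.039 and -0.24), Man2b1 (0.0082 and -0.35), Tpp1 (-0.042 and 0.17) and Tmem106b (-0.32 and 0.13) differed in sign between the labels.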

How the data were processed

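The authors processed reads with Cell Ranger 1.3.0 at default settings against mm10, per the submitters' processing notes, and deposited 1 table of raw UMI counts (genes by cell barcodes) for each library. The study's limits on cells had not been applied to the files. They were applied here: barcodes with more than 5% mitochondrial UMIs, fewer than 400 genes or more than 30000 UMIs were dropped (578 of 19637), which kept 19059 cells. These limits kept more cells than the study states for its microglia at 1 week, where 148 and 61 were kept here. For the other groups the study gives only a range, and both of its ends were lower than here. The study also used t-SNE to tell outlier cells apart, a step not repeated here. A gene absent from a table was taken as 0, and 14 symbols listed more than once were summed. Doublets were not called. Summed counts of a library were the input to edgeR 4.0.16 (TMM, filterByExpr minimum of 10, glmQLFit and glmQLFTest) in 1 model of 5 groups, where the biological coefficient of variation was 18.2%. A gene was called at FDR below 0.05 and fold change above 1.5, and adjusted p were taken over all 12155 genes. The script was tested on simulated data. Shares of UMIs and of cells were given without a test. Alternatives were library size alone, DESeq2 1.42.0, UMIs per cell, no filter, all barcodes, no cells with at least 1% of UMIs in the markers of 7 other cell types (monocytes and border macrophages not used), a replicate block, the study label as covariate, 1 study label alone, the 2 groups alone, a prior count of 2 and each library left out.

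The 36 members and all gene and marker lists were chosen with earlier results of these data known. All members are named. Of the other lists, the 3 called genes with the largest change and an average log2 CPM of at least 5 are named for in vitro and slice 3 weeks against adult. Gene positions are from GENCODE (GRCm38). Python 3.11.15 was used with numpy, pandas and matplotlib.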

Additional observations from a re-analysis of the deposited data

How the results depend on the processing

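All 106 member differences that were called kept their direction in the 10 alternatives other than UMIs per cell that were run on every comparison, and in the 4 that left out 1 library of their own comparison. Of these, 68 stayed called in every one of those 14. Beside the counts given with each comparison, the counts that moved by over 1.5 times were 14 lower and 3 higher in vitro with library size alone, 5 lower in vitro with no filter on low counts, and 11 lower at 1 week with library size alone. UMIs per cell gave 34 higher and 0 lower in vitro, 15 and 0 at 1 day, 19 and 0 after 1 week, 28 and 0 at 3 weeks, 16 and 1 when in vitro was set against 3 weeks, and 11 and 0 between 3 weeks and 1 day. Member medians under UMIs per cell were 2.15, 0.62, 0.96, 1.34, 0.77 and 0.64 in that order. Medians moved beyond the spread between libraries to -0.32 (in vitro), -0.44 (1 week), 0.038 (3 weeks), -0.39 (in vitro against 3 weeks) and 1.00 (3 weeks against 1 day) with library size alone, to 0.16, 0.31, -0.18 and 1.12 (in vitro, 3 weeks, in vitro against 3 weeks, 3 weeks against 1 day) with no filter, to 0.11 and 0.31 (in vitro, 3 weeks) with only the 2 groups fitted, and to 0.29 at 3 weeks with all barcodes. With 1 library left out, the lower count in vitro was 5 to 8 and the median -0.11 to 0.13, the median at 1 day was -1.01 to -0.71, the 1 week counts were 3 to 6 higher and 3 to 6 lower with a median of -0.29 to -0.16, and at 3 weeks 6 to 12 were higher with a median of 0.21 to 0.29. In vitro against slice 3 weeks the counts were 2 to 4 higher and 5 to 11 lower, and the median of slice 3 weeks against slice 1 day was 1.01 to 1.09. The share of UMIs in adult was 1.69% with all barcodes, 1.69% without cells with other markers and 1.69% as a mean over cells, each a shift above the SD of 0.0014. Replicates with the same number also shared a study label in adult and slice 3 weeks, and in the other pairs of groups the number was not tied to a label (correlations of deviations -0.11 to 0.094 over all pairs of groups, 0.060 for adult with slice 3 weeks), and a fit with a replicate block lost the call of Grn, gave 7 higher and 5 lower at 3 weeks against adult, and gave the counts of the report in the other 5 comparisons. Under UMIs per cell 42 of the 106 called differences changed sign, with all genes shifted as stated above. Their log2 fold changes for in vitro against adult were Arsb at 0.12, Asah1 at 1.53, Ctns at 1.45, Laptm5 at 0.78, Man2b1 at 1.41, Naglu at 1.57, Ppt1 at 1.48, Smpd1 at 0.76 and Tfe3 at 1.08. For slice 1 day against adult they were Arsa at 0.18, Arsb at 0.087, Asah1 at 0.55, Ctns at 0.29, Fuca1 at 0.94, Gaa at 0.58, Glb1 at 0.30, Grn at 0.67, Idua at 0.28, Lamp2 at 0.61, Npc1 at 0.24, Ppt1 at 0.70, Psap at 0.017, Scarb2 at 0.89, Sgsh at 0.44, Tfe3 at 0.45 and Tpp1 at 0.44. For slice 1 week against adult they were Laptm5 at 0.22, Naglu at 0.54, Npc1 at 0.40 and Tfe3 at 0.43. For slice 3 weeks against adult they were Ctns at 0.20, Laptm5 at 0.40 and Tfe3 at 0.24. For in vitro against slice 3 weeks they were Gaa at 0.18, Glb1 at 0.41, Laptm5 at 0.39, Man2b1 at 0.45, Npc2 at 0.39, Pld3 at 0.051, Ppt1 at 0.13, Scarb2 at 0.28 and Smpd1 at 0.24. Depth limited the slice 1 week libraries most, where 3 counts correspond to 2.96 and 7.68 CPM. With 2 libraries a group, p-values rest on a spread shared over all genes and groups, and the design text states biological replicates without saying which animals or cultures they came from.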
